A study of Rattus norvegicus with 3 samples.

Results

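The distal colon of rats given a laxative plant extract during loperamide-induced constipation was compared with that of non-constipated rats, on 1 microarray per group. The AEtLP-treated constipation group received loperamide at 4 mg/kg under the skin, morning and evening for 3 days. It was then given AEtLP, the aqueous extract of Liriope platyphylla root, by mouth at 1000 mg/kg (15 µL per g body weight) 15 hr after the last loperamide. The vehicle-treated constipation group had the same loperamide and a like volume of water, and the colon of both groups was taken 24 h after the oral dose. The non-constipation group, called No, received only the sodium chloride injections, and no oral dose is described for it. The AEtLP and No groups thus differ in loperamide and in the oral dose together, and the effects of these cannot be told apart here. All rats were male SD rats of 8 weeks. The No array is titled as constipated rats without treatment, and its treatment entry reads none. It was taken for the No group, since the methods name no group of rats that was constipated and left without an oral dose.

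The comparison covers all 30367 probes of the array, chosen without regard to their values, and uses the AEtLP and No arrays, 2 of the 3 in the series. A difference is the log2 value on the AEtLP array minus that on the No array, so that 1 on this scale is 2-fold. With a single array in each group there is no replicate error, no test was made, and every number describes these arrays and not the groups of rats. The methods give the size of each group of rats, but the number of rats behind an array is not given in the sources used here. The colons of a group were pooled for the RT-PCR of the study, which is not said of the arrays. The probes carry Agilent-type identifiers that were not paired with genes here. The tissue could therefore not be checked against marker genes, and probes are given by identifier without a known role.

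The distal colon takes up salt and water from the stool, secretes mucus from goblet cells, and moves the stool by a smooth muscle layer under the control of enteric neurons. Loperamide acts on µ-opioid receptors of those neurons and lowers propulsion and secretion, which lengthens transit and dries the stool. A laxative acts against one or more of these steps, through bulk, fluid secretion or motility. The question put to the arrays is how near the colon transcript profile lay to that of rats without constipation once the extract had been given.

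Most of the profile lay close to that of the non-constipated colon. On 76.0% of the probes the AEtLP array was within 1.5-fold of the No array, and the median absolute difference was 0.30 on the log2 scale. At least 2-fold differences were found on 1241 probes that were higher and 1786 that were lower with AEtLP, which is 4.09% and 5.88% of all probes. Of the probes past 2-fold, 41.0% were higher. The median fold was 2.44 among the higher probes and 0.356 among the lower probes. The 2-fold limit cuts through a continuous range, with 188 higher and 178 lower probes between 2-fold and 2.1-fold, and 231 and 213 between 1.9-fold and 2-fold.

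**Figure D1:**
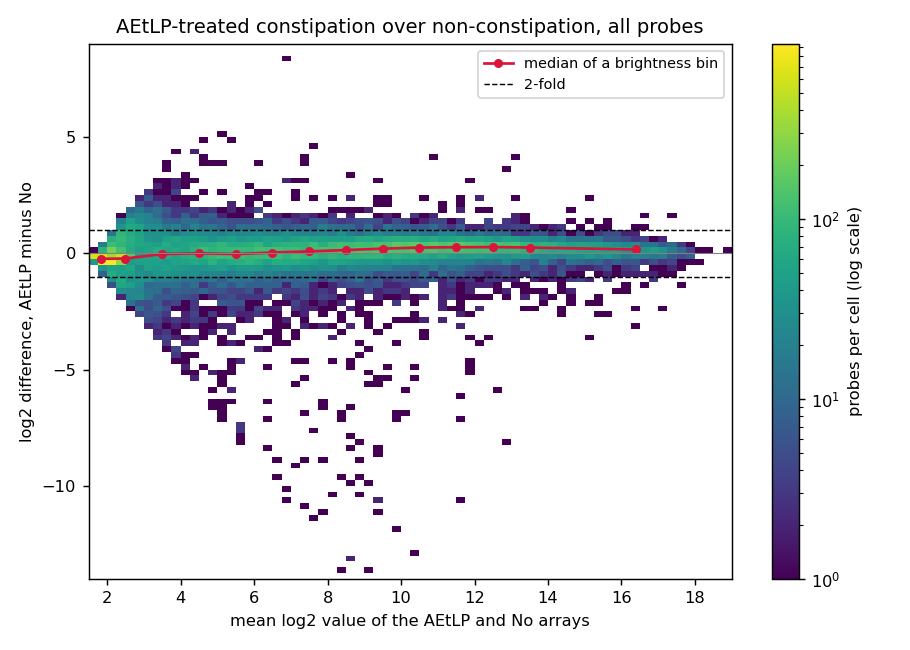
Log2 difference of the AEtLP array minus the No array (vertical) against the mean log2 value of both arrays (horizontal) for 30367 probes. Colour gives the number of probes per cell on a log scale, dashed lines mark 2-fold, and the red line joins the medians of 14 brightness bins. The medians go from -0.24 below a mean of 2 to 0.26 between 12 and 13, and the far tail is downward, with 121 probes lower by 16-fold or more and 12 higher by as much.

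The direction of the differences depended on their size. Between 1.5-fold and 2-fold, more probes were higher (2642) than lower (1629) with AEtLP. Between 2-fold and 3-fold the numbers were nearly level, at 946 higher and 999 lower. Beyond that the lower probes led at every size, with 264 lower against 79 higher between 4-fold and 8-fold, and 89 against 22 between 8-fold and 16-fold. Only 1 probe was at least 64-fold higher, whereas 63 were at least 64-fold lower and 17 of them at least 1024-fold lower. The share of higher probes thus went from 53.2% at a limit of 1.5-fold through 27.3% at 3-fold to 9.02% at 16-fold. Counted over all probes past a limit, the lower probes led at 2-fold and at every higher limit under each scaling. The scalings were median centring, quantile normalization, loess, a floor and an offset. Between 2-fold and 3-fold alone, however, the higher probes led after median centring and after quantile normalization. The lead of higher probes at 1.5-fold turned to 3099 higher and 3758 lower after loess, which removes the trend with brightness.

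The spread of the differences varied with brightness, the mean log2 value of the AEtLP and No arrays. Among the 10123 brightest probes, with means from 9.18 up, 83.8% lay within 1.5-fold and 4.48% were past 2-fold. Among the 10122 dimmest, with means up to 4.39, 71.2% lay within 1.5-fold and 14.9% were past 2-fold. The central 95% of the folds ran from 0.493 to 1.89 in the brightest and from 0.294 to 2.68 in the dimmest probes. The 10122 probes between them had 10.5% past 2-fold and, as deposited, the strongest tilt, with 668 lower and 396 higher. After quantile normalization and loess the brightest probes had the strongest tilt. Of their probes past 2-fold, 26.1% and 20.7% were then higher, against 41.0% and 31.3% in the middle. The spread was greatest at means from 3 to 4, where 27.4% of 2081 probes were past 2-fold and 50.1% within 1.5-fold. Below a mean of 2, where both arrays were at their dimmest values, none of 2368 probes was past 2-fold. None could be, since the lowest values of the arrays were 1.56 for AEtLP and 1.74 for No.

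The middle of the differences also moved with brightness. The median difference was -0.22 in the dimmest, 0.05 in the middle and 0.23 in the brightest probes, so that 30.8% of the dimmest but 75.3% of the brightest probes were higher with AEtLP. The lowest value of an array was 1.56 for AEtLP and 1.74 for No, and the upper quartile was 10.45 for AEtLP and 10.29 for No. The quartile range was accordingly 7.29 on the AEtLP and 7.07 on the No array. After quantile normalization, which gives the arrays the same distribution, the 3 medians were -0.03, 0.08 and 0.08. After loess they were -0.03, -0.02 and 0.01.

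The counts were read under several scalings because of this trend. Median centring gave 1392 higher and 1662 lower probes, and quantile normalization 1438 and 1775. A floor at the 20th percentile of each array, which is 2.49 for AEtLP and 2.55 for No, left 998 higher and 1470 lower probes. Among the brightest probes, whose counts the floor left as they were, the deposited values gave 195 higher and 259 lower. There quantile normalization gave 119 and 337, and loess 95 and 364, so the lower probes led in each case but by very different margins. Their share of higher probes was 43.0% as deposited, 26.1% after quantile normalization and 20.7% after loess. Among the dimmest probes the order was not fixed, with 650 higher and 859 lower as deposited and 884 higher and 813 lower after quantile normalization.

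**Figure D2:**
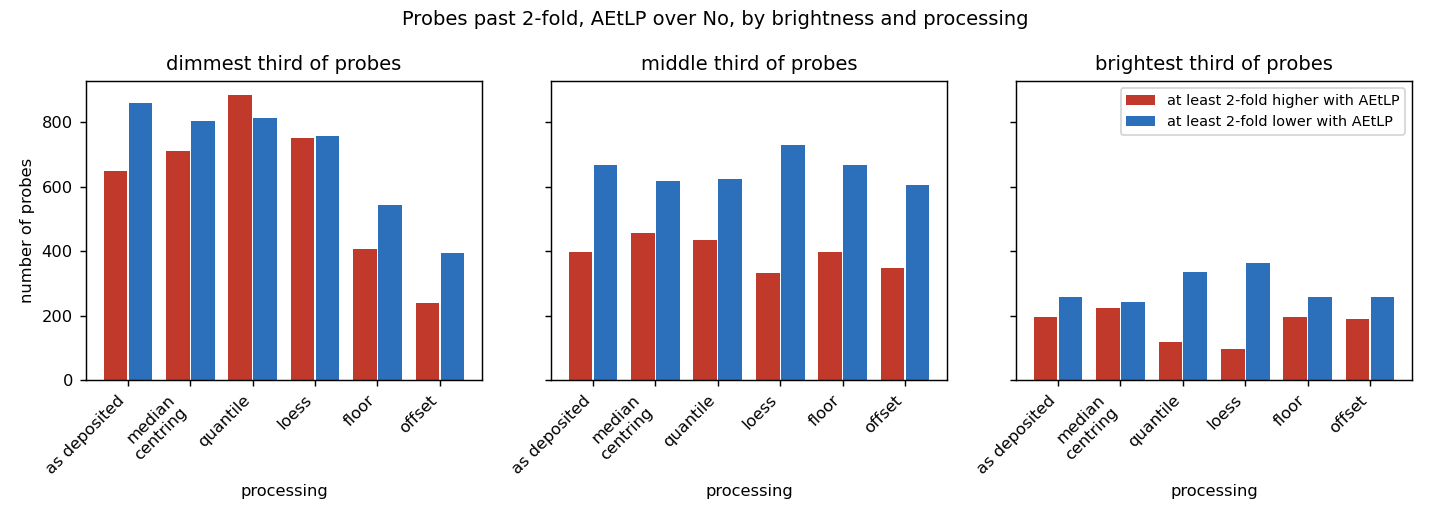
Number of probes higher (red) and lower (blue) by 2-fold or more with AEtLP than in No, for the dimmest, middle and brightest 10122 to 10123 probes, under 6 ways of processing on the horizontal axis. Lower probes outnumber higher ones throughout the middle and brightest panels, most after loess (730 against 332 and 364 against 95), while the dimmest panel turns to 884 higher and 813 lower after quantile normalization.

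A set of probes did not depend on these choices. Past 2-fold in the same direction as deposited and after median centring, quantile normalization, loess, the floor and the offset were 633 of the 1241 higher probes and 1211 of the 1786 lower probes, or 51.0% and 67.8%. Among the brightest, 242 of 259 lower probes and 95 of 195 higher probes were kept. The 95 is the count after loess alone, and the 242 the count after median centring alone. Loess moved the median difference of the brightest probes from 0.23 to 0.01, which takes higher probes under the limit and not lower ones. The shares kept there thus depend on the trend removed and do not compare gains with losses. In the middle of the range 588 of 668 lower and 304 of 396 higher probes were kept, and among the dimmest 381 of 859 and 234 of 650. No probe was past 2-fold upward in one of these settings and downward in another.

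The distance to the non-constipated colon was set beside the same distance for the vehicle-treated group. Both use the No array, so a deviation of that array enters both. Within 1.5-fold of No lay 76.0% of the probes with AEtLP and 79.5% with vehicle, and 80.9% of the probes were within 1.5-fold between the AEtLP and vehicle arrays. With vehicle, 4.2% of all probes lay 2-fold or more above No and 4.19% as far below it. For AEtLP against vehicle, 2.78% of the probes were 2-fold or more higher and 4.4% as far lower. By these counts over all probes the AEtLP array was no nearer to No than the vehicle array was, and the arrays of the loperamide-treated groups were the nearest pair. Among the dimmest probes they were instead the farthest pair as deposited, with 69.7% within 1.5-fold. There it was 72.7% for vehicle and No and 71.2% for AEtLP and No. This order depended on the scaling. After quantile normalization AEtLP and No were the farthest pair of the dimmest probes, with 69.3% against 71.0% for AEtLP and vehicle. The floor and the offset gave that farthest pair as well.

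One measure gave the other order. The median absolute difference from No was 0.30 with AEtLP and 0.35 with vehicle. Only the dimmest probes gave this order, where it was 0.29 and 0.46, while it was 0.34 and 0.27 in the middle and 0.30 and 0.24 in the brightest probes. Among the dimmest probes the vehicle array lay lower than No as a whole, with a median difference of -0.41 against -0.22 for AEtLP. Median centring kept the order, with 0.31 and 0.35 over all probes. After quantile normalization the median absolute difference was 0.25 with AEtLP and 0.23 with vehicle, after loess 0.24 and 0.22, and with the floor 0.26 and 0.21. These 3 settings put the vehicle array nearer to No. So did the offset, with 0.26 and 0.24, and leaving out the dimmest probes, with 0.31 and 0.25. Between AEtLP and vehicle the median absolute difference was 0.230 after quantile normalization and 0.228 after loess. Between vehicle and No it was 0.228 and 0.218, so the loperamide arrays were not the nearest pair by this measure there. The large differences as deposited also put the vehicle array nearer to No than the AEtLP array. The 1% of probes farthest from No began at 6.31-fold with AEtLP and 5.1-fold with vehicle. Between AEtLP and vehicle the like value was 3.94-fold, the smallest of the pairs. In the brightest probes 95.5% lay under 2-fold on both arrays. As deposited, the excess of the AEtLP array was widest in the middle of the brightness range, with 89.5% of the probes under 2-fold against 92.7% with vehicle. After quantile normalization it was widest among the dimmest probes, with 83.2% against 86.8%, while the middle had 89.5% against 92.6%.

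**Figure D3:**
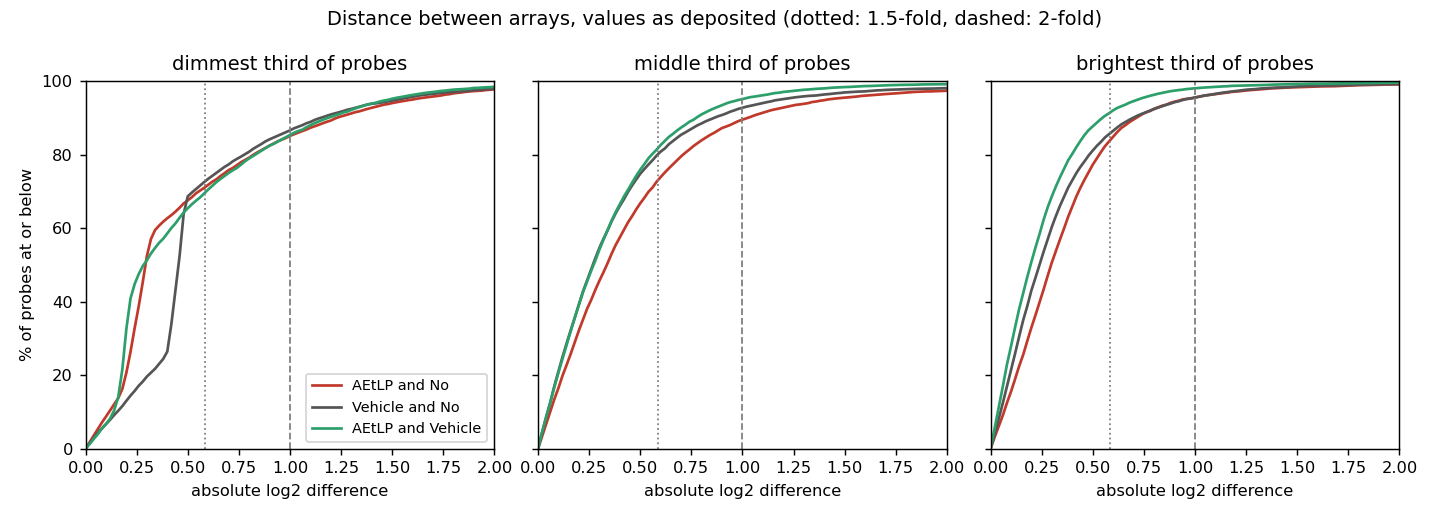
Percent of probes (vertical) at or below a given absolute log2 difference (horizontal) between AEtLP and No (red), Vehicle and No (grey) and AEtLP and Vehicle (green), for the dimmest, middle and brightest probes, as deposited. The red curve lies below the grey one in the middle panel, where 89.5% and 92.7% of the probes are under 2-fold, and the grey curve of the dimmest panel stays low up to near its median of 0.46.

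As deposited, the probes past 2-fold were weighted to the dim end. Of the higher probes 650 (52.4%) and of the lower probes 859 (48.1%) belonged to the 10122 dimmest of the 30367 probes. With the floor the dimmest held 407 of 998 higher and 543 of 1470 lower probes. With the offset they held 240 of 780 and 394 of 1257, so that the weighting was no longer seen. The median log2 value of the 1241 higher probes was 5.0 on the AEtLP, 4.56 on the vehicle and 3.49 on the No array, and on 441 the No value did not exceed the 20th percentile of its array. The median of the 1786 lower probes was 3.48 on the AEtLP, 4.39 on the vehicle and 5.60 on the No array, and on 649 the AEtLP value did not exceed that of its array. On the vehicle array, which played no part in choosing these probes, both sets had their median between those of the other arrays. Part of this follows from choosing the probes by the No array, whose own deviations shift every difference from it. In the brightest probes the medians of the 195 higher probes were 11.54 with AEtLP, 11.28 with vehicle and 10.30 in No, and those of the 259 lower probes 10.17, 11.11 and 12.32.

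The greatest gains and losses are given for the probes that reached the array median on the brighter of the AEtLP and No arrays, 15720 in number. Of these, 433 were higher and 682 lower by 2-fold or more with AEtLP, against 1241 and 1786 of all 30367 probes. The 15 greatest gains ran from 9.20-fold to 314-fold. The first, A_44_P335974, had a log2 value of 11.13 with AEtLP, 9.61 with vehicle and 2.84 in No. It was high on both loperamide arrays and little above the 20th percentile on the No array. The size of its gain is thus uncertain, with a log2 difference of 8.29 as deposited and 7.67 with the offset.

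The other gains fell into 2 kinds of profile. On A_64_P012977 the values were 12.94 with AEtLP, 12.71 with vehicle and 8.87 in No, a 16.8-fold gain over No. On A_64_P160693 they were 14.69, 14.79 and 10.96 in the same order, a 13.3-fold gain. On A_64_P058319 they were 8.23, 8.89 and 4.25, and on A_64_P011301 9.19, 9.39 and 5.37. These probes stood apart from the No array by about the same step with and without the extract. A_64_P099254, A_64_P073470, A_64_P118526 and A_64_P085645 had the same shape, with gains from 9.20-fold to 28.7-fold. The sizes are uncertain on A_64_P099254 and A_64_P073470, whose No values were dim, at 2.86 and 3.23. With the offset their log2 differences went from 4.84 to 4.25 and from 3.95 to 3.48.

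On the remaining probes the AEtLP array stood above both others. A_64_P093822 had 7.65 with AEtLP, 2.12 with vehicle and 2.59 in No, where it was close to the 20th percentile. Its 33.4-fold gain over No is thus uncertain in size, with a log2 difference of 5.06 as deposited and 4.37 with the offset. A_64_P127747 had 9.91, 6.11 and 5.33, and A_64_P063681 had 9.55, 5.83 and 5.45. The brightest of the kind, A_64_P015163, had 15.27 with AEtLP, 12.81 with vehicle and 11.05 in No, which is 18.7-fold over No and places the vehicle array between the others. A_64_P160235 and A_64_P076200, with 6.93 and 6.74 with AEtLP, had No values of 2.1 and 2.25, below the 20th percentile, so that their 28.4-fold and 22.5-fold gains are uncertain as well.

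The 15 greatest losses exceeded every gain. They ran from 1366-fold to 11949-fold. A bright No value is fixed by the way these probes were chosen, and it lay between 12.09 and 16.88 on the log2 scale. With AEtLP the same probes had values from 1.59 to 6.23, and with vehicle from 1.49 to 6.13. A_64_P088146 had 2.45 with AEtLP, 5.08 with vehicle and 16 in No. A_64_P058472 had 2.18, 4.74 and 15.25, and A_44_P532133 had 3.84, 5.48 and 15.73. A_44_P1029241 was the brightest of them in No at 16.88, and it had 6.23 with AEtLP and 6.13 with vehicle. The vehicle array, which was not used to choose these probes, was low on all 15.

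The sizes of these losses are limited by the dim end of the AEtLP array. On 8 of the 15 probes the AEtLP value was at or below its 20th percentile. With the floor the 15 differences ran from -13.51 to -9.61 on the log2 scale, so that they stayed large when the dimmest values were raised. Of the 121 probes at least 16-fold lower, 55 were at or below that percentile with AEtLP. The median of these 121 was 3.19 with AEtLP, 4.32 with vehicle and 11.05 in No. They held 0.00474% of the summed linear signal of the AEtLP array and 0.850% of that of the No array. Since there is a single No array, a loss with loperamide and a rare high reading in No cannot be told apart.

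**Figure D4:**
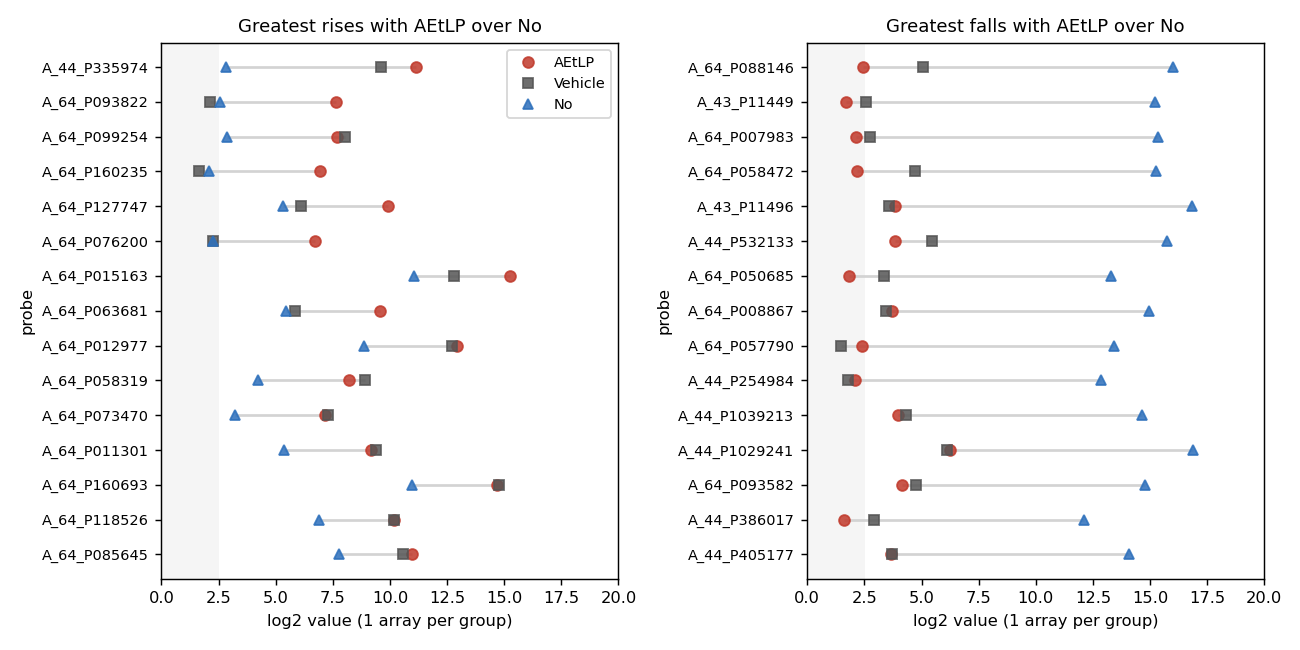
Log2 values (horizontal) on the AEtLP (red circle), Vehicle (grey square) and No (blue triangle) arrays for the 15 probes with the greatest gain (left) and the 15 with the greatest loss (right) with AEtLP over No, 1 array per group. Shading ends at 2.49, the 20th percentile of the AEtLP array. On the left the Vehicle mark lies near AEtLP on some probes and near No on others, and on the right AEtLP and Vehicle are at most 6.23 while No is at least 12.09.

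Bright probes are least touched by the dim end of the arrays. They are taken here as the 4480 probes with a mean log2 value of 12 or more, a limit chosen after the values were seen. Of them, 60 were higher and 84 lower by 2-fold or more with AEtLP, against 1241 and 1786 of all 30367 probes. The greatest gains were those of A_64_P015163 and A_64_P160693, already described. A_64_P095825 had 16.35 with AEtLP, 15.08 with vehicle and 13.94 in No, a 5.31-fold gain. A_64_P162705, among the brightest probes of the array, had 18.28, 17.13 and 16.57, a 3.27-fold gain. On both, the vehicle value lay between the others. On A_64_P096328, with 14.24 with AEtLP, 14.36 with vehicle and 11.93 in No, the vehicle value was instead the highest. The same held for A_42_P698409, with 13.16, 13.45 and 10.89, and for A_64_P071277, with 15.44, 15.52 and 13.66.

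The greatest losses among these bright probes differed in the place of the vehicle array. On A_43_P11451 the values were 8.75 with AEtLP, 8.49 with vehicle and 16.78 in No. On A_64_P055477 they were 9.65, 11.17 and 15.60, and on A_42_P545943 10.35, 10.91 and 14.14. These were low on both loperamide arrays. On A_64_P045137 the values were instead 14.80 with AEtLP, 17.69 with vehicle and 17.91 in No, so that the vehicle array lay near No. A_64_P105254, with 15.80, 17.96 and 18.28, and A_64_P123799, with 14.46, 16.65 and 16.99, were alike in this. A_64_P126936 had 13.45 with AEtLP, 15.59 with vehicle and 17.05 in No, with the vehicle value between the others.

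Probes on which AEtLP lay apart from both other arrays were counted next. In the 10123 brightest, 95 probes had AEtLP 2-fold or more below both other arrays and 14 had it 2-fold or more above both. The same numbers were 100 and 11 after quantile normalization and 107 and 10 after loess. Of the 95 probes, 68 had vehicle within 1.5-fold of No, and on 10 vehicle was itself 2-fold or more lower than No. Over all 10123 brightest probes, 85.7% had vehicle within 1.5-fold of No, and on 167 vehicle was 2-fold or more lower. Vehicle was thus less often near No on the 95 probes than over the brightest probes as a whole. The 95 probes had a median level of 10.65 log2 with AEtLP, 12.75 with vehicle and 13.18 in No. Over all probes the AEtLP array was below both others on 649 and above both on 295. A deviation of the single AEtLP array is enough to place a probe in these sets, so they describe that array and were not tested as an effect of the extract. The 10 probes of mean 12 or more that stood farthest below both arrays lay from 12.55 to 15.80 with AEtLP, from 15.14 to 17.96 with vehicle and from 14.93 to 18.28 in No. They were 3.69-fold to 12.1-fold below No.

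**Figure D5:**
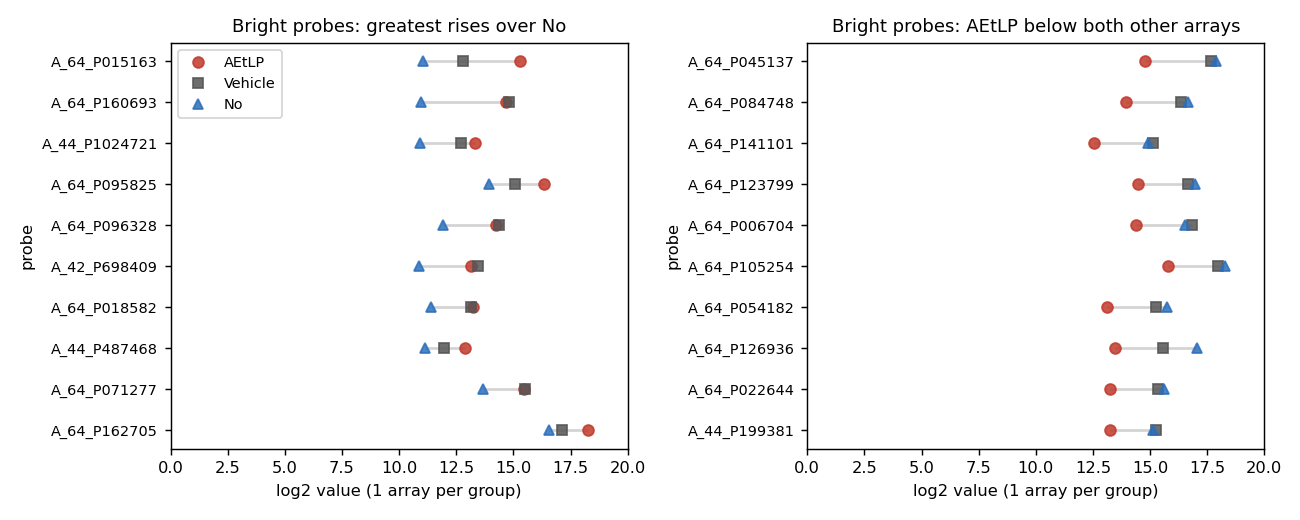
Log2 values (horizontal) on the AEtLP (red circle), Vehicle (grey square) and No (blue triangle) arrays for probes with a mean of 12 or more, 1 array per group. Left, the 10 greatest gains with AEtLP over No. Right, the 10 probes on which AEtLP lay farthest below both other arrays, with AEtLP between 12.55 and 15.80 and Vehicle close to No on all of them except A_64_P126936.

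The likeness of the whole profiles differed with the range of values taken. Across all 30367 probes Pearson's r between the AEtLP and No arrays was 0.982. It was 0.613 among the dimmest, 0.791 among the middle and 0.954 among the brightest probes. Probes of an array share its RNA, labelling and scan and are not independent, and a narrow range of values lowers r, so these values describe the arrays only. By summed linear signal, the probes within 1.5-fold held 88.9% of the AEtLP array and 87.0% of the No array. The 1241 higher probes held 1.63% of the AEtLP and 0.653% of the No signal, and the 1786 lower probes 1.09% and 4.58%.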

How the data were processed

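Total RNA of the distal colon was measured on 3 one-colour arrays, 1 per group. The deposited log2 values are the authors' processed values, for which their methods name filtering by detection, a logarithm and quantile normalization. The deposited distributions nevertheless differ, with upper quartiles of 10.45 for AEtLP, 10.40 for vehicle and 10.29 for No. An Illumina BeadChip is named there, but the identifiers and labelling steps are Agilent's. The base of the logarithm is not stated. It was taken as 2, since the highest value would then be a signal of 470635. Background correction is not given in the sources used here. A colour key for fold changes was not used.

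Differences were computed for all probes without a filter. Brightness was the mean log2 value of the AEtLP and No arrays. The alternatives were median centring, quantile normalization of the 3 arrays, loess of each pair (span 0.3), a floor (20th percentile, by array), an added linear offset (10th percentile over the arrays), leaving out the 10122 dimmest probes, and limits of 1.5-fold and 3-fold. Named probes are the 15 greatest gains and 15 greatest losses whose brighter array was at or above its median. The lists of bright probes and of those apart from both other arrays were added after the values were seen. Gene lists that had been set could not be used, because the probes were not paired with genes. The comparison, lists and alternatives were chosen with earlier results of these data known. No test was made, since each group has 1 array, which limits the precision. The computation was checked on simulated arrays with known differences. Python 3.11.15, numpy 2.4.6, pandas 2.3.3, statsmodels 0.14.6 and matplotlib 3.10.9 were used.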

Additional observations from a re-analysis of the deposited data

How the results depend on the processing

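At 1.5-fold 3883 probes were higher and 3415 lower with AEtLP (53.2% higher), and at 3-fold 295 and 787 (27.3%). Without the dimmest probes 591 were higher and 927 lower at 2-fold (38.9%). With the offset 780 were higher (38.3%), and 6 were at least 16-fold higher. The share of higher probes was 45.6% after median centring, 44.8% after quantile normalization and 38.9% after loess. Within 1.5-fold lay 74.8% after median centring, 76.5% after quantile normalization, 77.4% after loess, 78.6% with the floor, 80.1% with the offset and 78.3% without the dimmest probes. Among the brightest probes 119 were at least 2-fold higher after quantile normalization and 95 after loess. The median difference of the dimmest probes was -0.03 after quantile normalization and after loess, -0.07 with the floor and -0.11 with the offset, and that of the brightest 0.08 and 0.01 after quantile normalization and loess. AEtLP was at least 2-fold above both other arrays on 195 probes with the floor and 129 with the offset, and below both on 366 with the offset. The floor and the offset act on dim values by construction. For the other settings the cause was not tested. Of 58 named probes under 5 settings each, none changed direction, and 3 of the values past 2-fold went under it. The named probes were chosen for the size of their differences, so the lack of a change in direction says little. No replicate could be left out.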

Other observations

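The identifiers fall into 4 series by their prefix. The median difference of AEtLP over No was 0.28 on the 1865 probes of series A_42, 0.14 on the 1549 of A_43, 0.09 on the 8183 of A_44 and -0.01 on the 18770 of A_64. The median brightness of these series had the same order, at 10.01, 7.99, 7.36 and 5.83. The share of probes at least 2-fold lower was 4.61%, 4.84%, 5.95% and 6.06% in that order.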
